A study of Mus musculus with 4 samples.

Results

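The 4 mouse Hox clusters were examined for binding of RAD21, a core subunit of the cohesin complex, in embryonic stem cells (ESCs) and in embryoid bodies (EBs). The genes were taken from a list of 38 Hox genes, all of which were found among the 21281 protein-coding genes of the autosomes in the mm9 annotation (GENCODE vM1). HoxA held 10 of them, HoxB 10, HoxC 9 and HoxD 9. For each cluster the deposited RAD21 binding sites were taken from 100 kb before to 100 kb after the listed genes, which gave 22 of the 15311 ESC sites and 10 of the 11022 EB sites. Reads were counted within 1 kb of each gene start and within 250 bp of each site summit.

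All cells came from the R1/E mouse ESC line carrying a RAD21-GFP transgene on a bacterial artificial chromosome, so that the antibody against GFP precipitated the tagged protein, which was made beside the untagged one. ESCs were harvested at day 0 of differentiation and EBs, aggregates of differentiating cells grown from the same line, at day 12. Each cell type had 1 library precipitated with goat anti-eGFP (RAD21) and 1 with a goat IgG isotype control (IgG), whose descriptions also speak of input DNA. With 1 library per group no test between conditions was possible. The intervals given are exact 95% intervals that cover counting error only, and a difference is called only in the sense that such an interval leaves out 1. EBs hold several cell types, so binding in fewer cells and less binding per cell cannot be told apart.

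Hox genes encode homeodomain transcription factors that give position along the head-to-tail axis. Within a cluster they lie in the order in which they are used along that axis, from paralog group 1 at the anterior (3 prime) end to group 13 at the posterior (5 prime) end, and they are transcribed in the same direction. Cohesin holds DNA molecules together as a ring, extrudes chromatin loops and is often halted where the zinc finger protein CTCF binds, and CTCF sites inside the clusters are known as borders between repressed and active Hox chromatin. ESCs keep the clusters largely silent under Polycomb proteins, and the clusters open as cells differentiate.

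In mm9 the listed genes spanned chr6:52112350-52210874 in HoxA, chr11:96055630-96229570 in HoxB, chr15:102751534-102867274 in HoxC and chr2:74506367-74603200 in HoxD. These spans are called cluster bodies, and the 100 kb on either side of them flanks. HoxA is transcribed from the minus strand and the others from the plus strand. Sites listed in ESCs and EBs that overlapped were joined, which gave 25 sites. They were numbered along the chromosome within each cluster (HoxA-1 to HoxA-7, HoxB-1 to HoxB-10, HoxC-1 to HoxC-4 and HoxD-1 to HoxD-4), and 15 of them lay in the bodies.

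The CTCF motif was searched at these sites because many RAD21 sites elsewhere in the genome hold it. A match to a CTCF weight matrix of 20 bases, learned from the deposited sites of other chromosomes, was looked for on both strands within 150 bp of each summit. None of the 15 body sites held a match at the strict threshold, which 1e-05 of random positions pass. At the looser threshold, which 1e-04 pass, 10 of the 15 did. The best matches of these 10 sites are shown in the orientation of the motif, from 5 prime to 3 prime, with the matched 20 bases in capitals and 5 bases on either side in lower case.
HoxA-3, chr6:52154649-52154678, minus strand: gcccaGTCTCCAGCGGGTGGCGCTCgagtc
HoxA-4, chr6:52171799-52171828, minus strand: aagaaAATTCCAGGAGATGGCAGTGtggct
HoxA-5, chr6:52207111-52207140, plus strand: agcttGTCAACACGAGGTGGCGCCCttgat
HoxB-4, chr11:96096411-96096440, minus strand: ctctcGCGGCCGGCAGGGGTCACTGtgtgg
HoxB-5, chr11:96101727-96101756, minus strand: cctagACAGACACTAGAGGGTGCTCggcgc
HoxB-6, chr11:96140253-96140282, plus strand: gcacaGTGGCCGCTAGATGGCATCCttgct
HoxB-7, chr11:96156003-96156032, minus strand: cccgaACGGACGGTAGATGGCAGCAaactg
HoxB-8, chr11:96164550-96164579, plus strand: cgtcaATCGCCGGGAGGTGGCGCGCtctgc
HoxD-3, chr2:74540443-74540472, plus strand: cgcatTTGGCCACTAGAGAGCGCTGttgct
HoxD-4, chr2:74553969-74553998, plus strand: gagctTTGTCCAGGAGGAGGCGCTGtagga

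For contrast, 3 flank sites passed the strict threshold, and their matches are shown in the same way.
HoxA-1, chr6:52057588-52057617, minus strand: tcaagCAGGCCAGAAGAGGGCGATGggtcc
HoxB-2, chr11:96007086-96007115, plus strand: gaggaATGGCCACCAGAGGGGGGTAgacgg
HoxC-4, chr15:102961371-102961400, minus strand: ctagaGAGGCCAGAAGAGGGCACATgatcc

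In these flank matches the scores were 17.71 bits at HoxA-1, 17.02 at HoxB-2 and 17.29 at HoxC-4. In the bodies the scores ran from 7.769 bits at HoxB-8 to 16.14 at HoxD-3. The strict threshold was 16.6 bits on even-numbered and 16.37 bits on odd-numbered chromosomes. HoxD-3, HoxA-4 with 15.63 bits and HoxB-6 with 15.57 bits thus missed it narrowly, and the 3 flank sites passed it narrowly. Among the ESC sites of the Hox windows, 3 of 22 held a strict match (13.6%, 2.91 to 34.9%), beside 47.5% of all autosomal ESC sites. Among the EB sites 0 of 10 did (upper limit 30.8%), beside 42.4% of all autosomal EB sites. Both intervals lay below the genome-wide shares. At the looser threshold the shares were 63.6% (40.7 to 82.8%) in ESCs and 50.0% (18.7 to 81.3%) in EBs, beside 84.3% and 78.6% of all autosomal sites. As 6 joined sites stand in both lists, the shares of ESCs and EBs are not independent of each other. No match at a threshold says only that these letters were not found in this window, and CTCF binding itself was not measured in these files.

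At 6 of the 10 body sites with a looser match the motif pointed in the direction of Hox transcription. The motif is read here on the strand where CCA stands in its first part and GGC in its second. Read so, the summit lay on the 3 prime side of the motif at 12 of the 15 Hox sites with such a match, 60.5 bp from its centre at the median. Over all autosomal sites with a looser match, 77.9% had the summit on that side and the median distance was 44.5 bp. The match of HoxA-3 was centred 77.5 bp upstream of the start of Hoxa5. That of HoxA-4 was centred 39.5 bp from the outermost annotated start of Hoxa7, inside the annotated gene.

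RAD21 sites were unevenly spread over the clusters. HoxB held 10 ESC and 3 EB sites in its window, HoxA 6 and 3, HoxC 4 and 1, and HoxD 2 and 3. The bodies alone held 13 ESC and 8 EB sites over 485.0 kb. This was 26.8 ESC and 16.5 EB sites per Mb, while the autosomes as a whole held 6.30 and 4.50 per Mb and the flanks 11.3 and 2.50. In the bodies 11 of the 15 sites lay at least 2 kb from every listed start. The profile of reads along the clusters shows these sites as narrow maxima.

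**Figure D1:**
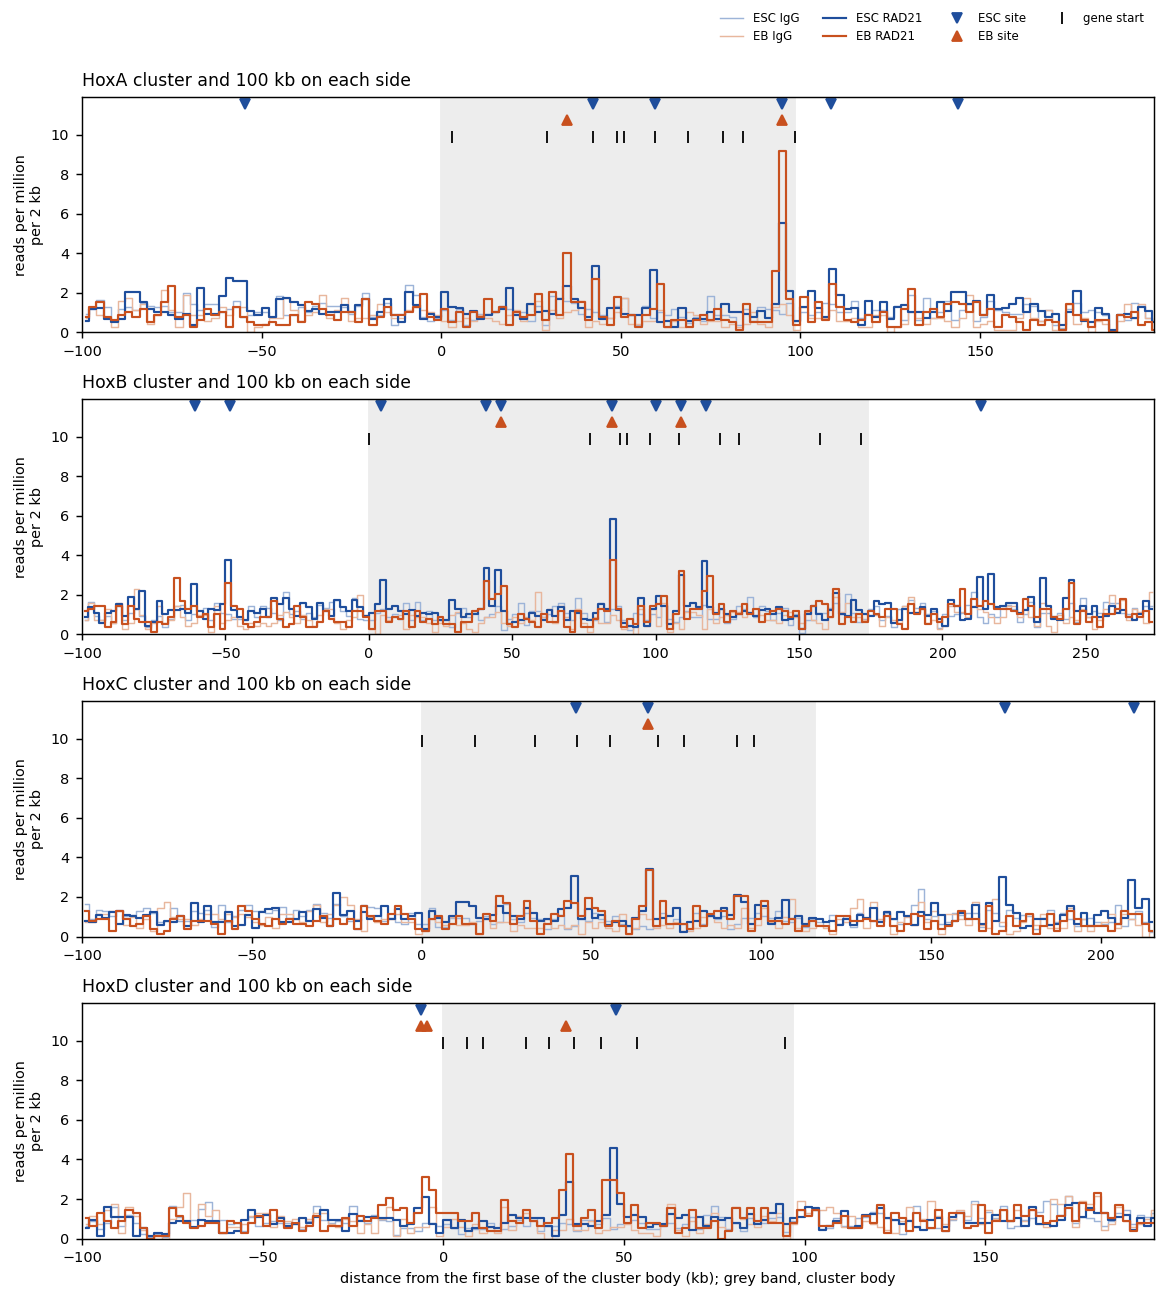
Reads of the 4 libraries in 2 kb steps (per 1000000 autosomal reads, y axis) against the distance in kb from the first base of each cluster body (x axis), with the body in grey, listed gene starts as ticks and deposited summits as triangles (down for ESC, up for EB). The highest maximum lies near the posterior end of the HoxA body at HoxA-5, where the EB line stands above the ESC line.

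Of the 22 ESC sites 6 overlapped an EB site (27.3%, 10.7 to 50.2%), beside 48.6% of all autosomal ESC sites. Of the 10 EB sites 7 overlapped an ESC site (70%, 34.8 to 93.3%), beside 68.3% of all autosomal EB sites. Both intervals included the genome-wide share. Of the 25 joined sites 6 stood in both lists, 16 in the ESC list alone and 3 in the EB list alone. At 9 of the 16 sites listed in ESCs alone, EB RAD21 reads exceeded EB IgG reads with an interval above 1, beside 16.5% of all autosomal sites listed in ESCs alone. Each of these 9 rested on 0 or 1 EB IgG reads and 6 to 13 EB RAD21 reads. Summed over the 16 sites, EB over ESC IgG was 0.779 (0.422 to 1.38). The part of the low control in this share was not tested. At 11 of the 16 the interval of EB over ESC RAD21 included 1, beside 57.8% of all such sites. At 2 of the 3 sites listed in EBs alone, ESC RAD21 exceeded ESC IgG, beside 32.2% of all autosomal sites listed in EBs alone.

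The ESC libraries were deeper, with 13714772 autosomal RAD21 reads against 7740389 in EBs and 12602155 IgG reads against 6929293. When 1 Poisson caller was applied to both cell types, it found 30 ESC and 19 EB sites in the Hox windows at full depth. With the ESC libraries thinned at random to the EB read numbers it found 22, 19 and 19 ESC sites in 3 draws, against the same 19 EB sites. The bodies then held 14, 12 and 13 ESC sites and 14 EB sites. At that depth 50.0 to 57.9% of the ESC calls in the Hox windows overlapped an EB call, beside 53.3 to 53.6% of all autosomal ESC calls. The difference between the deposited lists, 22 against 10 sites, was not seen at equal depth with this caller. This caller listed 19 EB sites where the deposited list held 10. It still found 18, 19 and 18 of the 22 deposited ESC sites in the thinned draws. Its calls over all autosomes were also alike, with 14305, 14368 and 14388 in the thinned ESC draws and 14286 in EBs. How much depth and how much the caller changed the numbers was not tested.

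At the 25 sites the RAD21 libraries held 654 reads in ESCs and 273 in EBs, and the IgG libraries 70 and 31. Scaled to autosomal reads, EB over ESC was 0.740 (0.640 to 0.853) for RAD21 and 0.805 (0.510 to 1.25) for IgG. The median log2 ratio of the sites, with 1 read added to each count, was -0.59 for RAD21 and -0.14 for IgG, while over all 18488 autosomal sites it was 0.03 for RAD21 and 0.28 for IgG. Reads were lower in EBs at 5 of the 25 sites, beside 18.4% of all autosomal sites. They were higher at 0 of the 25, beside 20.3%. These counts have no replicate check. The lists were made from the same reads, so the ratios by list are a description: 0.504 (0.409 to 0.618) at the sites listed in ESCs alone, 1.08 (0.845 to 1.37) at those in both lists and 1.69 (1.06 to 2.68) at those in EBs alone. By cluster the RAD21 ratio was 0.854 (0.658 to 1.1) in HoxA, 0.725 (0.575 to 0.908) in HoxB, 0.427 (0.270 to 0.655) in HoxC and 0.951 (0.644 to 1.39) in HoxD. The interval of HoxC lay wholly below 1, and so did that of HoxB. In the bodies the ratio was 0.843 (0.710 to 0.998), and in the flanks 0.543 (0.409 to 0.715). Of the 25 sites 16 were listed in ESCs alone and 3 in EBs alone, from these same reads. Ratios over all sites, by cluster and in bodies and flanks are therefore also only a description, as are the counts of lower and higher sites.

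**Figure D2:**
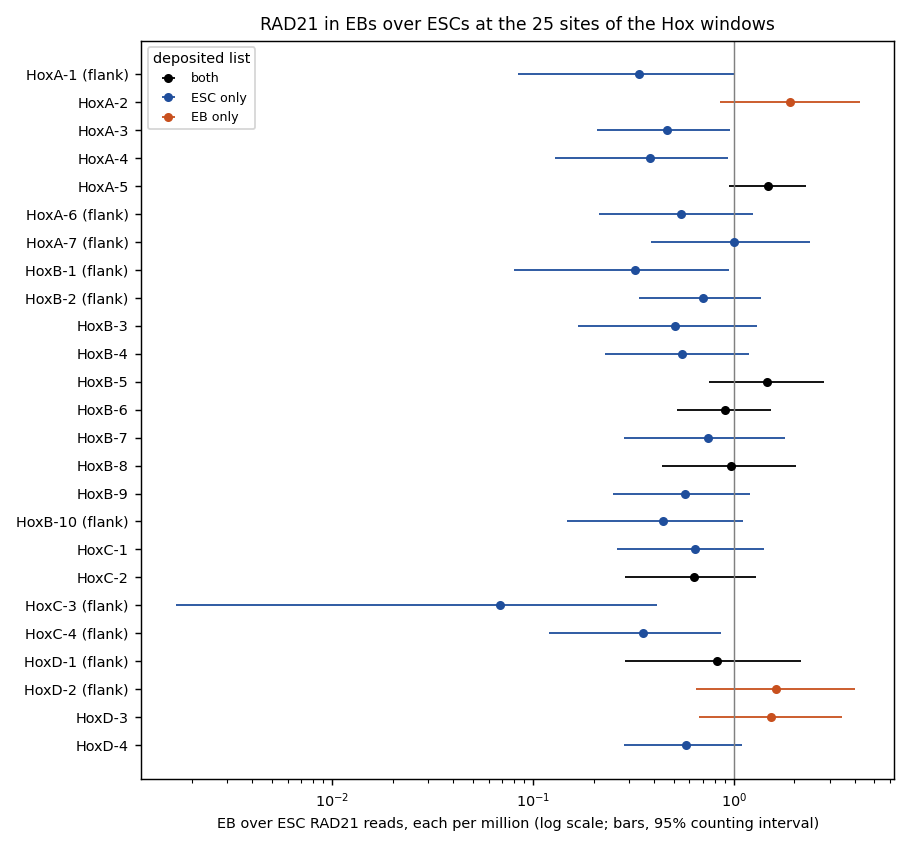
EB over ESC RAD21 reads within 250 bp of the summit, each per 1000000 autosomal reads (x axis, log scale), at the 25 sites of the Hox windows (y axis), with points coloured by the deposited list and bars for the 95% counting interval. At 5 sites, HoxA-3, HoxA-4, HoxB-1, HoxC-3 and HoxC-4, the interval lies below 1, and at 0 sites above 1.

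In HoxA the strongest site of all 4 clusters was HoxA-5, between Hoxa11 and Hoxa13, which encode factors of limb and genital tract patterning. It had its summit in intergenic sequence 3717 bp from the start of Hoxa13, just past the 3 prime end of that gene, and spanned chr6:52206038-52207837. It had a score of 331 in ESCs and of 366 in EBs, where a second site with a score of 65.8 was listed beside it. Within 250 bp of the summit it held 48 ESC and 40 EB RAD21 reads and 2 and 3 IgG reads. The ratio of EB over ESC was 1.48 (0.946 to 2.29), which included 1. Within 1 kb, a width tried after the values were seen, it held 79 and 73 RAD21 reads and the ratio was 1.64 (1.18 to 2.28).

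A pair of HoxA sites stood on outermost annotated gene starts and was listed in ESCs alone. HoxA-3 had its summit 14 bp from the start of Hoxa5, a gene of lung and skeletal patterning, and held 38 ESC and 10 EB RAD21 reads and 1 and 0 IgG reads (ratio 0.466, 0.207 to 0.954). HoxA-4 had its summit 44 bp from the outermost start of Hoxa7, a gene of trunk patterning, and held 28 and 6 RAD21 reads and 4 and 0 IgG reads (ratio 0.380, 0.129 to 0.935). The Hoxa7 transcript with the longest coding sequence starts further inside the gene, at base 52167504 of chromosome 6, and HoxA-4 does not stand on that start. Within 250 bp reads were thus lower in EBs at both, while each kept EB RAD21 reads above EB IgG. Within 1 kb the ratio of HoxA-3 was 0.693 (0.378 to 1.22), which included 1, and that of HoxA-4 was 0.443 (0.198 to 0.901). The Poisson caller found HoxA-3 in EBs as well, but not HoxA-4. HoxA-2, listed in EBs alone with a score of 78.0, lay between the starts of Hoxa4 and Hoxa5 and held 14 ESC and 15 EB reads and 4 and 2 IgG reads (ratio 1.90, 0.854 to 4.25). The annotation gives HoxA-2 as intronic in Hoxa3, whose longest record runs past Hoxa4, Hoxa5 and Hoxa6.

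HoxB held the most sites, and 3 of its 7 body sites were listed in both cell types. HoxB-6, between Hoxb9 and Hoxb8 and 2857 bp upstream of Hoxb8, had scores of 281 and 102. It held 45 ESC and 23 EB RAD21 reads and 5 and 4 IgG reads (ratio 0.906, 0.523 to 1.53). HoxB-8 lay in Hoxb5, 613 bp downstream of its start, and held 22 and 12 RAD21 reads and 7 and 1 IgG reads (ratio 0.967, 0.436 to 2.04). HoxB-5 lay in the long stretch between Hoxb13 and Hoxb9, 31072 bp from the latter, and held 23 and 19 RAD21 reads and 3 and 0 IgG reads (ratio 1.46, 0.754 to 2.81). All 3 ratios included 1, so that a change was not detectable at this depth.

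The other HoxB body sites were listed in ESCs alone, and their ratios also included 1. HoxB-9, 4922 bp upstream of Hoxb4, a gene known for its role in blood stem cell expansion, held 31 ESC and 10 EB RAD21 reads and 2 and 1 IgG reads. HoxB-4, in the stretch between Hoxb13 and Hoxb9, held 29 and 9 RAD21 reads and 6 and 3 IgG reads. HoxB-3, 4239 bp downstream of the start of Hoxb13, held 21 and 6 RAD21 reads and 3 and 0 IgG reads. HoxB-7, in an intron of Hoxb6, held 19 and 8 RAD21 reads and 6 and 1 IgG reads. Of these 4 sites, HoxB-9 had the highest score, 186, and the Poisson caller found it in EBs too.

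HoxC had a pair of body sites. HoxC-2, between Hoxc9 and Hoxc8 and 2962 bp upstream of Hoxc8, was listed in both cell types and held 31 ESC and 11 EB RAD21 reads and 2 and 1 IgG reads (ratio 0.629, 0.285 to 1.29). HoxC-1 lay 240 bp upstream of Hoxc10, a gene of lumbar and hindlimb patterning, and was listed in ESCs alone. It held 25 and 9 RAD21 reads and 0 and 1 IgG reads (ratio 0.638, 0.262 to 1.41). The largest fall in the Hox windows was in the anterior flank of HoxC, at HoxC-3, a site named after its values were seen. It held 26 ESC and 1 EB RAD21 reads and 2 and 4 IgG reads (ratio 0.0682, 0.00166 to 0.415). In EBs its RAD21 level did not exceed IgG. HoxC-4, the site with the highest score in that flank, held 30 and 6 RAD21 reads and 4 and 3 IgG reads (ratio 0.354, 0.121 to 0.865). Within 250 bp both flank sites of HoxC were thus lower in EBs, and within 1 kb HoxC-3 remained so at 0.127 (0.0251 to 0.396) while the interval of HoxC-4, 0.519 (0.248 to 1.01), included 1.

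HoxD also had a pair of body sites, each in a single list. HoxD-4, in an intron of Hoxd3 and 4060 bp from its start, had a score of 253 in ESCs and held 40 ESC and 13 EB RAD21 reads and 1 and 0 IgG reads (ratio 0.576, 0.283 to 1.1). HoxD-3, between Hoxd9 and Hoxd8 and 2248 bp upstream of Hoxd8, had a score of 140 in EBs. It held 15 and 13 RAD21 reads and 2 and 0 IgG reads (ratio 1.54, 0.672 to 3.46), and within 1 kb 40 and 40 reads (ratio 1.77, 1.11 to 2.82). The Poisson caller found both in both cell types at full depth, so the single listing of either was not matched by an absence of reads in the other cell type.

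In the flanks the sites with the highest score on each side were as follows. Before HoxA, HoxA-1 held 21 ESC and 4 EB RAD21 reads and 0 and 3 IgG reads. Beyond Hoxa13, HoxA-6 held 26 and 8 RAD21 reads and 3 and 0 IgG reads. HoxB-2, in an intron of the neighbouring gene Ttll6, held 33 and 13 RAD21 reads and 5 and 0 IgG reads. These 3 sites were listed in ESCs alone, and the RAD21 interval included 1 at each, at HoxA-1 as its upper bound of 1.00. Beyond Hoxb1, HoxB-10 held 24 and 6 RAD21 reads and 3 and 1 IgG reads. Between Evx2 and Hoxd13, HoxD-1, listed in both, held 15 and 7 RAD21 reads and 0 and 1 IgG reads. HoxD-2 beside it, listed in EBs alone, held 12 and 11 RAD21 reads and 3 and 1 IgG reads. At these the intervals again included 1.

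Across the 38 gene starts most read counts were low and close to IgG. ESC RAD21 reads ran from 4 to 46 with a median of 12.5, ESC IgG reads from 2 to 22 with a median of 8, EB RAD21 reads from 1 to 23 with a median of 5, and EB IgG reads from 0 to 11 with a median of 2.5. RAD21 exceeded IgG, with the lower bound of the ratio above 1, at 7 starts in ESCs, beside 8.27% of all protein-coding starts. These 7 were Hoxa5, Hoxa7, Hoxb1, Hoxb5, Hoxc5, Hoxc10 and Hoxd8, or 18.4% of the 38. In EBs there were 4, Hoxa5, Hoxb5, Hoxc5 and Hoxd12, or 10.5%, beside 8.32% of all starts. Among the 6470 protein-coding starts with at least 55% GC the shares were 10.5% in ESCs and 9.32% in EBs. A deposited ESC site lay within 1 kb of 4 starts (Hoxa5, Hoxa7, Hoxb5 and Hoxc10, 10.5% beside 2.31% of all starts). An EB site lay within 1 kb of 1, Hoxb5 (2.63% beside 2.20% of all starts). The EB share was thus close to the background. Starts were the outermost annotated start of each gene. With the start of the transcript with the longest coding sequence, RAD21 exceeded IgG at 5 starts in ESCs and 3 starts had an ESC site. The EB numbers stayed at 4 and 1. The median distance from a start to the nearest site was 10240 bp for ESC sites and 13710 bp for EB sites.

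**Figure D3:**
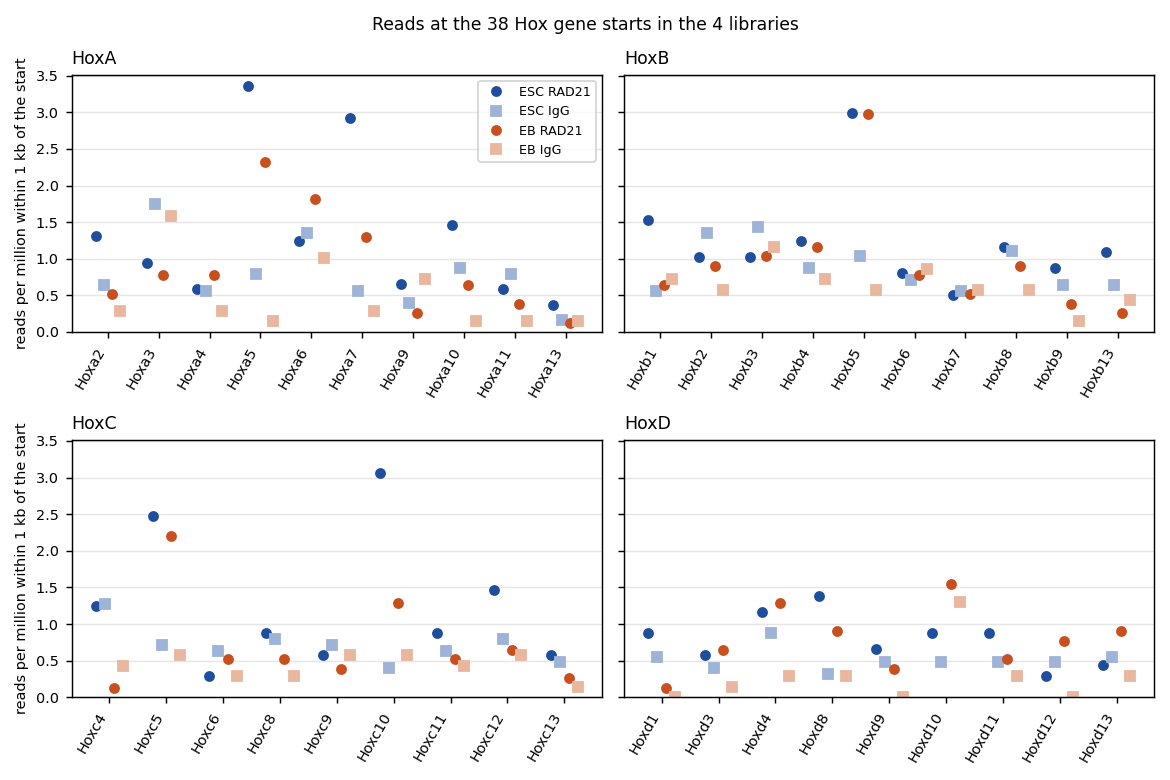
Reads within 1 kb of the 38 listed gene starts (y axis, per 1000000 autosomal reads) in each of the 4 libraries, by cluster and in the order of paralog groups (x axis). The interval of RAD21 over IgG lies above 1 in both cell types at Hoxa5, Hoxb5 and Hoxc5. It does so in ESCs alone at Hoxa7, Hoxb1, Hoxc10 and Hoxd8, and in EBs alone at Hoxd12.

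The starts at which RAD21 exceeded IgG in both cell types were 3, namely Hoxa5, Hoxb5 and Hoxc5, beside 2.52% of all starts. They are the 3 listed genes of paralog group 5, of which HoxD has no member; that they share a group was noticed after the values were seen. Hoxa5 (start at base 52154586 of chromosome 6) held 46 ESC and 18 EB RAD21 reads and 10 and 1 IgG reads, the highest ESC count in HoxA. Hoxb5 (start at base 96163909 of chromosome 11), the highest in HoxB, held 41 and 23 RAD21 reads and 13 and 4 IgG reads. Hoxc5 (start at base 102844246 of chromosome 15) held 34 and 17 RAD21 reads and 9 and 4 IgG reads. In ESCs the ratio of RAD21 over IgG was 4.23 (2.10 to 9.39) at Hoxa5, 2.90 (1.52 to 5.89) at Hoxb5 and 3.47 (1.63 to 8.23) at Hoxc5. The nearest listed summit was 26155 bp from Hoxc5, although the Poisson caller placed an ESC site 170 bp from its start at full depth. EB over ESC RAD21 included 1 at each of the 3, with 0.693 (0.378 to 1.22) at Hoxa5, 0.994 (0.569 to 1.70) at Hoxb5 and 0.886 (0.464 to 1.63) at Hoxc5.

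Reads at 4 starts were lower in EBs, Hoxa7, Hoxc4, Hoxc10 and Hoxd1 (10.5% beside 3.60% of all starts), and 0 were higher, beside 5.68%. Hoxa7 held 40 ESC and 10 EB RAD21 reads and 7 and 2 IgG reads (ratio 0.443, 0.198 to 0.901). Hoxc10, with the highest ESC count in HoxC, held 42 and 10 RAD21 reads and 5 and 4 IgG reads (ratio 0.422, 0.189 to 0.854). Both had an ESC site at the start. At the other pair the ESC level was itself within the interval of IgG. Hoxc4 held 17 and 1 RAD21 reads and 16 and 3 IgG reads (ratio 0.104, 0.00249 to 0.665), and Hoxd1, the most anterior gene of HoxD, 12 and 1 RAD21 reads and 7 and 0 IgG reads (ratio 0.148, 0.00345 to 0.998).

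The remaining named starts mark the ends of the range. Hoxd8 had the highest ESC count of HoxD, with 19 ESC and 7 EB RAD21 reads and 4 and 2 IgG reads. Hoxb1, a hindbrain gene at the anterior end of HoxB, held 21 and 5 RAD21 reads and 7 and 5 IgG reads. RAD21 exceeded IgG in ESCs at both. The lowest ESC counts within each cluster were at Hoxa13 with 5 ESC and 1 EB RAD21 reads and 2 and 1 IgG reads, Hoxb7 with 7 and 4 RAD21 reads and 7 and 4 IgG reads, Hoxc6 with 4 and 4 RAD21 reads and 8 and 2 IgG reads, and Hoxd12 with 4 and 6 RAD21 reads and 6 and 0 IgG reads. The call of Hoxd12 in EBs rests on those 6 reads against 0. At the 28 starts with no call in any of these comparisons, reads ran from 4 to 20 in the ESC RAD21, 1 to 14 in the EB RAD21, 2 to 22 in the ESC IgG and 0 to 11 in the EB IgG library, so that the ranges of RAD21 and IgG overlapped in both cell types.

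Summed over starts, RAD21 reads exceeded IgG reads at central and posterior genes, while the interval of anterior genes included 1. Over the 15 starts of groups 4 to 8 the ratio of RAD21 over IgG was 1.83 (1.5 to 2.24) in ESCs and 2.51 (1.8 to 3.54) in EBs. Over the 16 starts of groups 9 to 13 it was 1.64 (1.3 to 2.09) and 1.57 (1.06 to 2.37). Over the 7 starts of groups 1 to 3 it was 1.09 (0.810 to 1.48) and 1.04 (0.625 to 1.74), which included 1 in both cell types. The intervals of anterior and posterior genes overlapped in both cell types, so a difference between them was not shown. A few starts weighed on these sums. Without the 3 starts of group 5, left out after the values were seen, the ratio of groups 4 to 8 was 1.4 (1.11 to 1.77) in ESCs and 1.79 (1.22 to 2.67) in EBs. Without Hoxa3, whose annotated start lies between Hoxa6 and Hoxa7, that of groups 1 to 3 was 1.29 (0.920 to 1.82) and 1.34 (0.738 to 2.5). The intervals of the anterior and central genes then overlapped in both cell types. In groups 9 to 13, Hoxc10 alone held 42 of the 202 ESC and 10 of the 72 EB RAD21 reads, and the sum without it was not computed. Over the 34 starts without a listed site the ratio was 1.28 (1.1 to 1.48) and 1.51 (1.19 to 1.93).

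EB over ESC RAD21 over all 38 starts was 0.724 (0.622 to 0.841), and the IgG libraries gave 0.634 (0.512 to 0.781). The median log2 ratio was -0.41 for RAD21 and -0.55 for IgG, beside 0.12 and 0.01 over all protein-coding starts. RAD21 was lower in EBs at 28 of the 38 starts by the ratio alone, and IgG at 32. The fall of RAD21 was thus not larger than that of IgG. In random windows of 2001 bp with 50 to 55% GC the median log2 ratio was -0.34 for RAD21 and -0.27 for IgG. The median GC content at the Hox starts was 54.3%. Gene starts rich in GC differed from such windows. Among the 6470 protein-coding starts with at least 55% GC the median log2 ratio was 0.09 for RAD21 and -0.14 for IgG. The part of base composition in the fall at the Hox starts was not tested. After scaling to random windows of the same GC class the median of the Hox starts was -0.021. Divided by the IgG ratio of the same window, it was 0.15 in place of -0.41.

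Over whole cluster bodies RAD21 reads exceeded IgG reads in both cell types. The bodies held 3965 ESC RAD21 and 2783 ESC IgG reads, a scaled ratio of 1.31 (1.25 to 1.38), and 2068 EB RAD21 and 1202 EB IgG reads, a ratio of 1.54 (1.43 to 1.66). In the flanks the ratio was 1.06 (1.03 to 1.1) in ESCs and 1.01 (0.958 to 1.07) in EBs. The intervals of bodies and flanks did not overlap in either cell type, nor did those of ESC and EB bodies. Each of the 4 bodies had a lower bound above 1 in both cell types, beside 15.5% of all 100 kb windows of the autosomes in ESCs and 16.7% in EBs. Among the 1580 windows with a GC content of 48 to 51%, which takes in the 48.9 to 50.0% of the bodies, these shares were 53.1% and 42.9%, and the median ratio was 1.14 and 1.17. Over all 100 kb windows the median ratio was 0.978 in ESCs and 0.979 in EBs. Bodies and flanks were not matched for GC content, and its part in their difference was not tested.

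The highest EB ratios were those of HoxA at 1.68 (1.44 to 1.97), HoxD at 1.68 (1.43 to 1.99) and HoxC at 1.63 (1.39 to 1.91), and HoxB had 1.35 (1.21 to 1.52). These stood above 98.3%, 98.3%, 97.4% and 80.2% of the windows of like GC content. In ESCs the ratios were 1.25 (1.13 to 1.39) in HoxA, 1.25 (1.16 to 1.35) in HoxB, 1.41 (1.27 to 1.57) in HoxC and 1.4 (1.24 to 1.59) in HoxD, above 75.7%, 76.1%, 94% and 93.4% of those windows. The HoxC flanks had an EB ratio of 0.850 (0.758 to 0.954), the lowest of the flanks.

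The listed sites accounted for part of these reads. More than 1 kb from every deposited summit the bodies still had a ratio of 1.14 (1.08 to 1.2) in ESCs and 1.34 (1.25 to 1.45) in EBs, and the flanks 1.02 (0.983 to 1.06) and 0.984 (0.931 to 1.04). The windows of 48 to 51% GC, with the reads at their sites kept, had medians of 1.14 in ESCs and 1.17 in EBs. The ESC ratio of the bodies away from sites was thus no higher than that median. In EBs the ratio away from sites was 1.3 (1.09 to 1.55) in HoxA, 1.16 (1.03 to 1.32) in HoxB, 1.59 (1.36 to 1.88) in HoxC and 1.49 (1.26 to 1.78) in HoxD, all above 1. The intervals of HoxA and HoxB took in the 1.17 of the windows of like GC content, and those of HoxC and HoxD lay above it. In ESCs it was 1.3 (1.17 to 1.45) in HoxC and 1.25 (1.1 to 1.42) in HoxD, while 1.03 (0.923 to 1.16) in HoxA and 1.06 (0.976 to 1.15) in HoxB included 1. The ESC interval of HoxC lay above the 1.14 of the windows, and those of HoxA, HoxB and HoxD took it in. The rise of the ratio from ESCs to EBs moved with the control: EB over ESC was 0.924 (0.876 to 0.975) for RAD21 and 0.786 (0.734 to 0.841) for IgG in the bodies. The part of the control in it was not tested.

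**Figure D4:**
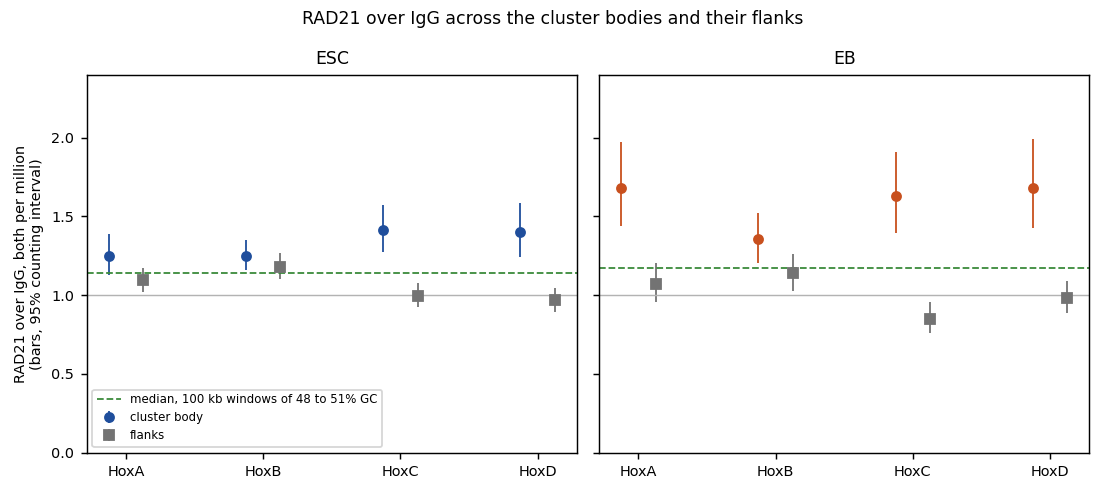
Ratio of RAD21 over IgG reads, both per 1000000 autosomal reads (y axis), in the body and the flanks of each cluster (x axis), in ESCs and EBs, with bars for the 95% counting interval and a dashed line at the median of 100 kb windows of 48 to 51% GC. In EBs the bodies of HoxA, HoxC and HoxD lie between 1.63 and 1.68 and their flanks between 0.850 and 1.07.

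Genes outside the clusters that neighbour, regulate or partner Hox genes or belong to the related ParaHox set were counted in the same way. Of 13 such genes, among them Evx1, Evx2, Meis1, Cdx2, Gsx2 and Pdx1, RAD21 exceeded IgG at the start of 2 in ESCs and 2 in EBs (15.4% in each, beside 8.27% and 8.32% of all starts). The start of 1 gene was higher in EBs and that of 1 lower (7.69% each, beside 5.68% and 3.60% of all starts). The higher one was Meis1, which encodes a cofactor of Hox proteins. It held 20 ESC and 24 EB RAD21 reads and 11 and 8 IgG reads (ratio 2.13, 1.13 to 4.06), and had the single deposited site of these starts, an EB site. Gsx2, a ParaHox gene, was lower, with 23 and 3 RAD21 reads and 5 and 3 IgG reads (ratio 0.231, 0.0444 to 0.765). The other 11 ratios included 1. The median log2 ratio of the 13 was -0.17 for RAD21 and -0.14 for IgG, beside -0.41 and -0.55 at the Hox starts.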

How the data were processed

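RAD21 and IgG were sequenced in ESCs and EBs, with 1 library per group and groups taken from the sample labels. The authors deposited aligned 35 base reads on mm9, which are read counts of 1 per line without normalization. The aligner is not given in the sources used here. No position and strand occurred more than once in a library. The authors called sites with MACS in each cell type against its IgG library. Each deposited score is -10 times the log10 of the p-value (lowest 50.01), and the deposited summit height is an unscaled pileup signal, not used for comparisons. The EB IgG file ends on chromosome X, so counts were scaled to autosomal reads.

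Reads were moved to the centre of the estimated fragment (206 bp in ESCs, 197 bp in EBs). Ratios of reads have exact conditional binomial intervals and shares have exact Clopper-Pearson intervals, both at 95%. Log2 ratios had 1 read added. For site counts at equal depth, windows of 400 bp in steps of 50 bp were kept at a Poisson p of at most 1e-05 over the IgG or mean density. Of the CTCF matrices, sites on odd-numbered chromosomes trained the one used for even-numbered chromosomes and X, and conversely. The interval, the caller and the motif search were tested on simulated data. Every listed Hox gene was counted, and part of the list of related genes is not reported here. Values were printed for starts with a site within 1 kb, the highest and lowest ESC start of each cluster, every body site and the highest-scoring flank site on each side in each list. Genes and lists were chosen with earlier results of these data known. Python 3.11.15, numpy 2.4.6, scipy 1.17.1 and pandas 2.3.3 were used.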

Additional observations from a re-analysis of the deposited data

How the results depend on the processing

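Of 63 alternative settings over 14 results, 46 left the value close to the main one. For counts this meant within 1.5 times, and for shares and ratios within the counting interval of the main value. For medians the allowed change was set from the log2 width of the counting interval of the ratio of summed reads, as the medians have no interval of their own. Sites fell to 14 in ESCs and 4 in EBs at a score of at least 100, ESC sites to 13 without flanks, and EB sites rose to 19 with the Poisson caller, at full depth or beside thinned ESC libraries. EB starts with RAD21 above IgG rose to 9 within 2 kb. Starts with an EB site fell to 0 within 500 bp and to 0 at a score of at least 100, each time losing Hoxb5. The median log2 ratio at starts became -0.11 within 2 kb, -0.17 within 500 bp, -0.021 after scaling to random windows of the same GC class and 0.15, a reversed sign, when divided by the IgG ratio. At sites GC scaling gave -0.37. The looser motif threshold gave 63.6% of ESC and 50.0% of EB sites. More than 1 kb from summits the body ratios were 1.14 in ESCs and 1.34 in EBs. For these changes the cause was not tested. An alternative added after the data were seen, ESC libraries thinned to EB depth, gave 6 ESC starts with RAD21 above IgG in place of 7. Without the starts that have a site, also added later, the median at starts was -0.34. No paired analysis was possible because each group had 1 library. Depth limits the starts: the median EB count was 5 RAD21 and 2.5 IgG reads.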
